A study of Mus musculus with 16 samples.

Results

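Solute carrier (Slc) genes were examined in RNA-seq of whole colon from WT mice and from mice lacking the chromatin remodeller Smarcad1 in the intestinal epithelium (KO), with and without colitis. The members were all gene names in the 4 deposited lists that start with Slc and a family number, 104 of 5171 distinct genes. Each list holds the genes that passed an adjusted p of 0.05 in the DESeq2 test of the authors for 1 comparison: colitis against control in WT, the same in KO, KO against WT in control, and KO against WT in colitis. A gene is called listed, risen or fallen below only where it stands in the list of that comparison. The annotation of the same genome build (GENCODE M21, GRCm38) names 379 Slc genes, 371 of them protein coding, and those outside the lists were not analysed here. Every member is therefore a gene that differed somewhere, and counts over members describe listed Slc genes, not all Slc genes of the colon.

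The 4 groups were WT control (3 libraries), KO control (3), WT colitis (5) and KO colitis (5). All mice were male C57BL/6. In KO mice, loxP-flanked exons of Smarcad1 were deleted by Cre recombinase under the Villin promoter, which acts in the intestinal epithelium, so every other cell type of the tissue kept the gene. All groups, controls included, had acquired microbiota from donor mice of another facility before the experiment. Colitis groups drank water with 1% DSS (dextran sodium sulphate, which erodes colonic mucus) for 15 days, and control mice did not receive it. RNA came from the middle part of the colon.

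The deposited values are group means of log2 RPM (reads per 1 M reads of the library), with no correction for gene length. Values of single libraries were not used, so levels and differences carry no SD, and whether the genotypes differed in how far they responded to colitis was not tested. Differences are given on the log2 scale. The geometric mean library size was between 8.005 M and 10.1 M reads, and a mean of 3 reads per library, taken as the detection floor, lay between −1.75 and −1.42 log2 RPM. Smarcad1 itself was listed in both genotype comparisons, at 5.77 (WT) and 4.59 (KO) log2 RPM without treatment and 5.68 (WT) and 4.55 (KO) in colitis. Markers of surface colonocytes were abundant in WT control, with Car1 at 11.74 and Guca2a at 11.38 log2 RPM.

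Solute carriers are membrane proteins that move small molecules across the plasma membrane and the membranes of organelles, driven by gradients of the substrate or of a coupled ion. Families are numbered by sequence relatedness, so genes of a family often, but not always, share a substrate. In the colon, surface colonocytes take up Na+, Cl- and the short-chain fatty acids that bacteria make, through carriers such as Slc9a3, Slc26a3 and Slc16a1. Nerves, immune cells and stromal cells of the colon wall carry their own sets, for neurotransmitters, metals and amino acids.

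The 104 members came from 42 families, of which 20 were represented by 1 gene. The largest families were family 25 (mitochondrial carriers) with 12 genes and family 16 (monocarboxylate carriers) with 10. Family 35, named for its nucleotide sugar carriers, had 9. Of the 104, 103 were protein coding. A total of 3 members were not transporters: Slc9a3r1 and Slc9a3r2, which encode scaffold proteins of the Na+/H+ exchanger, and the antisense RNA Slc13a2os. The exons of 29 members overlapped those of another gene, 26 of them on the opposite strand and 5 on the same strand. Whether reads were counted by strand is not given in the sources used here, so reads of such pairs cannot be told apart. Overlaps are named below for some of the 29 members only.

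Promoter sequences are shown for 5 members on which the results below turn: Slc37a2 and Slc20a1, which were among the largest falls in WT, Slc7a15 and Slc6a4, the members listed between the genotypes, and Slc25a29, whose start faces that of Slc25a47. They are RefSeq promoters of GRCm38.p6, 250 bases before to 50 after the start nearest to that in the deposited lists, read 5′ to 3′ on the strand of the gene. Capitals mark matches on either strand to TATAAA (the TATA box), CACGTG (an E-box), GGGCGG (a GC box), CCAAT or TTTATG (a core bound by Cdx factors). CACGTG reads the same on both strands.

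Slc37a2 (chr9:37255689-37255988, minus strand): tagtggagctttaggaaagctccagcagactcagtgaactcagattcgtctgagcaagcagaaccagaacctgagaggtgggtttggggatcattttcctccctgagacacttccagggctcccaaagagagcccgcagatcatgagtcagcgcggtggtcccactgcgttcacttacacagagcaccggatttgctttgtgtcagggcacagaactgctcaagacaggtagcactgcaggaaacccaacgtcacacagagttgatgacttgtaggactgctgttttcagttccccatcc
Slc20a1 (chr2:129198523-129198822, plus strand): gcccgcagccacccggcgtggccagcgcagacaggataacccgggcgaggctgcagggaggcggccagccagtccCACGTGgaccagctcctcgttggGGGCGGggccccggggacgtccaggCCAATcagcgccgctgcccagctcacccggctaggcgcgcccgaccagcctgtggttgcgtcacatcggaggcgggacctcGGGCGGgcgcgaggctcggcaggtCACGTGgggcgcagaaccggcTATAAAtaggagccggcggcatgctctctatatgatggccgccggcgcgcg
Slc7a15 (chr12:8599017-8599316, minus strand): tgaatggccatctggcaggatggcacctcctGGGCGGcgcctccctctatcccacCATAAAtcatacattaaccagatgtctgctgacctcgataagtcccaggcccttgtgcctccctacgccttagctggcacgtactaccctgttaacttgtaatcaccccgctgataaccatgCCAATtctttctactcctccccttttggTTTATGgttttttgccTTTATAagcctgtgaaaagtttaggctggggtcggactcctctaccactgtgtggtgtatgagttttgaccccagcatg
Slc6a4 (chr11:76998347-76998646, plus strand): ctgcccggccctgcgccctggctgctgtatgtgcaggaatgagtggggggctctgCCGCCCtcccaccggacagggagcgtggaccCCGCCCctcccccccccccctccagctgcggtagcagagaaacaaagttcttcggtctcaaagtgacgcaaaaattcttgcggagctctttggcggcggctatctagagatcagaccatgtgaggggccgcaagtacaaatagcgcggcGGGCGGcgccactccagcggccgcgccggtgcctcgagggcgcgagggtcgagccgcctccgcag
Slc25a29 (chr12:108835827-108836126, minus strand): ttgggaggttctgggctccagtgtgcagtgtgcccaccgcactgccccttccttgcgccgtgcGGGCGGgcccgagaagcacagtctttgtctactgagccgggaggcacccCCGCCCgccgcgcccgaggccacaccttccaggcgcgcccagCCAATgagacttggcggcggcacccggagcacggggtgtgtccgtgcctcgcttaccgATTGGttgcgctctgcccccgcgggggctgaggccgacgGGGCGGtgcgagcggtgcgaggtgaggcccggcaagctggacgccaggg

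Slc37a2 held no match to these 5 motifs in the window printed. Slc20a1 held 6 matches, with CACGTG and GGGCGG at 2 places each. The Slc6a4 window held GGGCGG at 3 places and no other match, and that of Slc7a15 held 5 matches, among them TATAAA and TTTATG. A promoter sequence was found for 79 of the 104 members. GGGCGG lay in 65.8% of them against 35.7% of all 32851 promoters of the table, and CACGTG in 15.2% against 7.15%. TATAAA was found in 7.59% of members against 13.6%, TTTATG in 7.59% against 11.9%, and CCAAT in 35.4% against 37.4%. These matches describe letters and are not evidence of binding. The promoters of all listed genes were not counted, so the shares do not set Slc genes apart from other listed genes.

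More Slc genes fell than rose on colitis induction in both genotypes, whereas more of all listed genes rose than fell. In WT, 43 members fell (41.3%) and 29 rose (27.9%), while 26.4% of all listed genes fell and 36.6% rose. In KO, 39 members fell (37.5%) and 29 rose (27.9%), against 33.6% and 44.8% of all listed genes. The share of members that fell in KO was thus close to that of all listed genes, and the share that rose was below it. The median difference of the members was −0.39 in WT and −0.42 in KO, whereas over all 5171 listed genes it was 0.13 and 0.19. Relative to those medians the members lay at −0.52 and −0.61.

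In all, 58 members had lower means in colitis in both genotypes, 42 had higher means in both, and 4 went opposite ways. The share lower in both was 55.8% of members and 44.6% of all listed genes, and the share higher in both was 40.4% and 52.9%. The 2 colitis lists shared 36 members, or 50% of the 72 listed in WT and 52.9% of the 68 listed in KO, against 66.9% and 53.8% for all listed genes. Of these 36, 22 fell and 14 rose, each in the same direction in both genotypes, as did all 2182 genes shared by the lists. The differences spanned −3.99 to 3.33 in WT and −3.24 to 2.06 in KO.

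**Figure D1:**
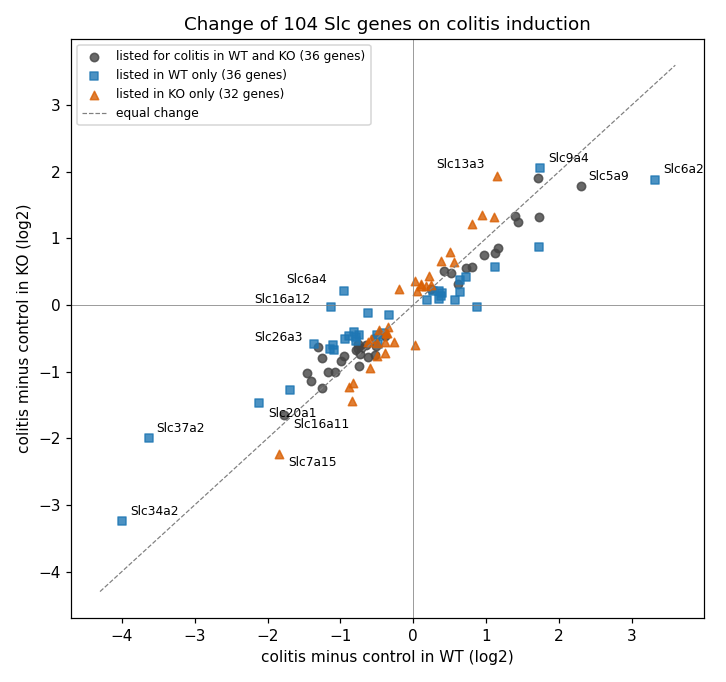
Difference between the authors' means in colitis and control for each of 104 Slc genes, in WT (x axis, log2) and KO (y axis, log2), with symbols for the colitis lists that hold the gene and a dashed line of equal change. Slc34a2 and Slc37a2 lie furthest left, with WT differences of −3.99 and −3.63, and Slc6a4 and Slc16a12 lie well above the line.

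Levels of different genes were compared per kilobase of merged exon. Slc6a14, a carrier of neutral and cationic amino acids, ranked 1 in all 4 groups, with 8.57 log2 RPM per kb in WT control, 8.49 in KO control, 8.37 in WT colitis and 8.73 in KO colitis. Slc26a3, the apical Cl-/HCO3- exchanger of surface colonocytes, stood at 8.40 in WT control and 7.10 in WT colitis. The scaffold Slc9a3r1 (8.10 in WT control) and the Na+/H+ exchanger Slc9a3 (7.69) followed. With no spread between libraries, neighbours in this order cannot be said to differ. The most marked move in rank within the upper 12 was that of the phosphate carrier Slc20a1, from 8 in WT control to 24 in WT colitis and to 16 in KO colitis.

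**Figure D2:**
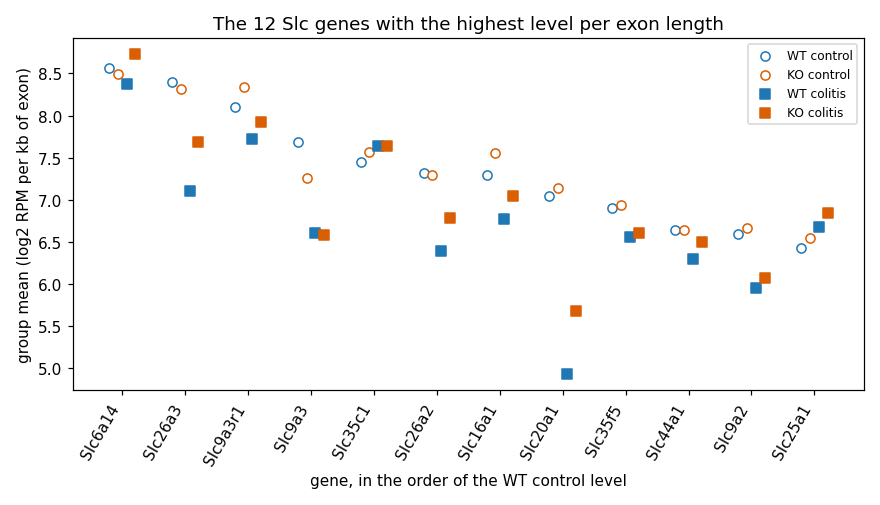
Authors' group means (y axis, log2 RPM per kb of exon) of the 12 Slc genes with the highest WT control level, in the order of that level (x axis), for WT (blue) and KO (orange) in control (open circles) and colitis (filled squares). Slc6a14 lies between 8.37 and 8.73 in all 4 groups, and Slc20a1 drops from 7.04 to 4.92 in WT and from 7.14 to 5.67 in KO.

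The largest falls in WT were those of genes that carry phosphate or phosphorylated sugar. Slc34a2, the Na+/phosphate cotransporter of epithelial apical membranes (chromosome 5, 53038081 to 53071664, plus strand), had 7.29 log2 RPM in WT control and 3.30 in WT colitis, a 15.9-fold fall. In KO its mean was 7.15 in control and 3.91 in colitis, 9.46-fold lower, although it is not in the KO list. Slc37a2, a sugar phosphate carrier of the endoplasmic reticulum (chromosome 9, 37227585 to 37255738, minus strand), fell 12.4-fold in WT, from 8.88 to 5.25 log2 RPM. Its KO means were 8.96 in control and 6.96 in colitis, 4.00-fold apart, and it was not listed in KO. Each of the 2 genes differed by under 0.2 between genotypes in control, and its WT mean was the lower in colitis.

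Slc20a1, a Na+/phosphate cotransporter found in most cells (chromosome 2, 129198764 to 129211616, plus strand), fell 4.35-fold in WT, from 9.52 to 7.40 log2 RPM. In KO its means were 9.62 in control and 8.15 in colitis, and it was again not listed there. So the WT list alone held these 3 genes, while the KO means lay in the same direction with smaller differences. Exons of Slc37a2 and Slc20a1 overlap predicted genes on the opposite strand.

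Ion exchangers of the colonocyte surface also fell. Slc26a3 (chromosome 12, 31390871 to 31473917, plus strand) was listed in both genotypes and fell from 11.07 to 9.77 log2 RPM in WT, 2.47-fold, and from 10.98 to 10.36 in KO, 1.55-fold. The sulphate carrier Slc26a2 fell from 10.95 to 10.01 in WT, and its KO means were 10.92 and 10.41. Slc9a3, the main Na+/H+ exchanger of the apical membrane, fell from 10.15 to 9.06 in WT. Its KO control mean was already lower, at 9.71, and its KO colitis mean was 9.03. Slc9a2, a related exchanger, was in both colitis lists and fell by 0.65 (WT) and 0.59 (KO).

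Among the 18 members of ion carrier families, 9 fell and 3 rose in WT, and 9 fell and 1 rose in KO. The 18 include the scaffolds Slc9a3r1 and Slc9a3r2, which are not carriers. They fell in KO (−0.42 and −0.37) and had unlisted WT differences of −0.38 and −0.47. Over all 18, scaffolds included, 13 had lower means in colitis in both genotypes and 4 had higher means in both. Of the 4 members in both lists all fell, namely Slc26a3, Slc9a2 and the Na+/Ca2+ exchangers Slc24a3 and Slc8a1. The 3 that rose in WT were low in level. Slc4a11, a carrier of the bicarbonate family, rose from 0.33 to 2.06 log2 RPM in WT, and its KO means were −0.14 and 0.73. Slc24a5, an exchanger of the same family as Slc24a3, rose from 3.00 to 3.64, and its exons overlap Myef2 on the opposite strand. The gastric exchanger Slc9a4 rose from −1.51 to 0.24 in WT, while its KO control mean of −2.43 lay under the detection floor and its KO colitis mean was −0.37. Slc9a4 ends 49848 bases before Slc9a2 on the same strand of chromosome 1, and the pair moved in opposite directions in WT. Exons of Slc9a4 overlap predicted genes on the opposite strand.

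The surface colonocyte markers moved alongside these falls. Of 7 genes in that marker list 5 were listed, Slc26a3 itself among them, and none rose. The summed level of those 5 was 13.51 log2 RPM in WT controls, 13.47 in KO controls, 12.43 in WT colitis and 12.35 in KO colitis. None was at the floor in any group. None of the 8 general epithelial markers, such as Epcam and Krt8, was listed. In whole tissue, fewer cells of a type and less RNA per cell cannot be told apart, and the part of the surface colonocyte markers in the falls was not tested. Between the genotypes the surface colonocyte markers went both ways. Guca2a and Car1 had lower differences in KO (−2.06 and −1.49) than in WT (−1.32 and −0.83). Aqp8 (−0.89 in KO and −1.40 in WT) and Car4 (−0.55 and −0.74), like Slc26a3, had higher ones in KO. Of 5 smooth muscle markers 2 were listed, and these were also lower in colitis. Acta2 fell in WT (−0.59) and had a KO difference of −0.47, and Myh11 fell in both (−0.66 and −0.59). The part of the smooth muscle markers in the falls was not tested either.

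**Figure D3:**
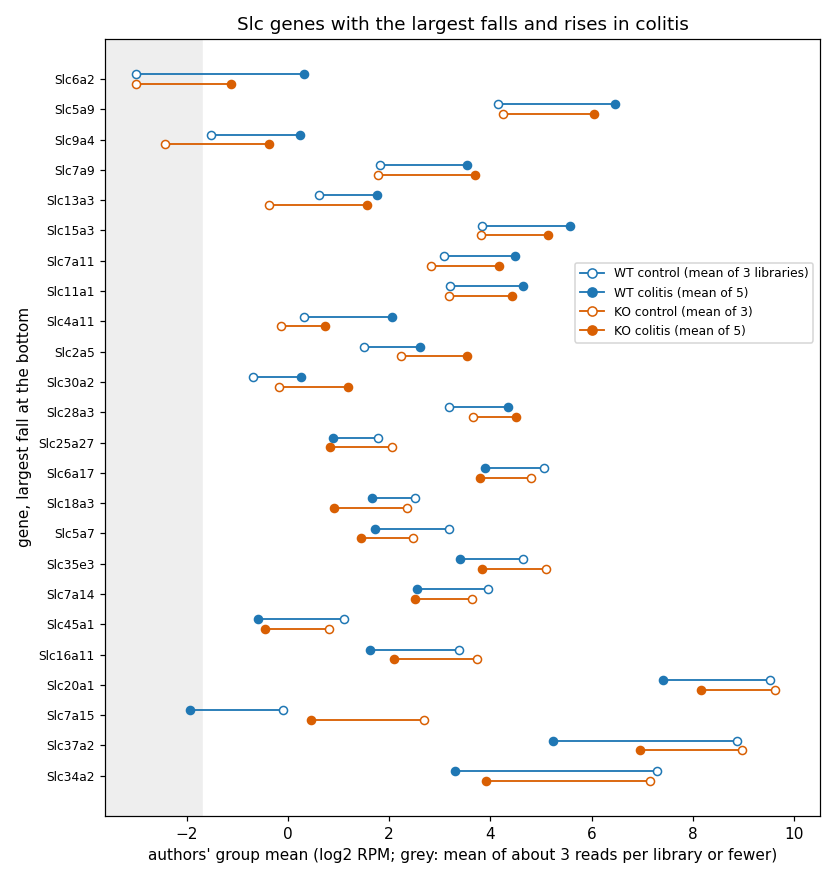
Authors' group means (x axis, log2 RPM) of the 12 listed Slc genes with the largest falls and the 12 with the largest rises by the mean of both genotypes (y axis), with control as open and colitis as filled circles, WT in blue and KO in orange. Slc34a2 moves from 7.29 to 3.30 in WT, and Slc6a2 has control means of −3.01, inside the grey range of about 3 reads per library or fewer.

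Monocarboxylate carriers were mostly lower in colitis. Of the 10 members of family 16, 6 fell and 2 rose in each genotype, and 8 had lower means in both. Slc16a1, the butyrate and lactate carrier of colonocytes, fell from 9.44 to 8.91 log2 RPM in WT and from 9.69 to 9.19 in KO, both about 1.4-fold. Slc16a11 showed the largest fall of the family, from 3.39 to 1.62 in WT and from 3.74 to 2.09 in KO. Slc16a7, another monocarboxylate carrier, had differences of −1.25 in WT and −0.80 in KO. Slc16a13, whose 3′ end lies 371 bases from that of Slc16a11 on the opposite strand of chromosome 11, fell by 0.95 and 0.76. The aromatic amino acid carrier Slc16a10 fell in WT by 0.88 and had a KO difference of −0.47.

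The 2 that rose were Slc16a3 and Slc16a6. Slc16a3, the lactate exporter of glycolytic cells, rose from 5.40 to 6.21 in WT and from 5.00 to 5.56 in KO. Slc16a6, whose exons overlap Amz2 and Arsg on the opposite strand, rose by 0.42 and 0.51. The creatine carrier Slc16a12 stood apart between the genotypes. It fell from 3.61 to 2.48 in WT, 2.19-fold, and its KO means were 3.68 and 3.65. Its difference between KO and WT in colitis was 1.17 and was not listed.

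The wider class of carriers of organic acids, bile acids, organic ions and urea held 22 members. Of these, 10 fell and 3 rose in WT, and 14 fell and 5 rose in KO. They include the antisense RNA Slc13a2os, whose exons overlap Slc13a2. It fell in KO (−0.51) and had an unlisted WT difference of −0.59. Slc51b, a subunit of the basolateral bile acid exporter, rose from 4.98 to 6.10 log2 RPM in WT and from 5.11 to 5.89 in KO, with exons that overlap Rasl12 on the opposite strand. Slc13a3, a dicarboxylate carrier, rose in KO from −0.37 to 1.57, 3.84-fold, and had 0.61 and 1.76 in WT. The urea carrier Slc14a1 rose in KO from 0.21 to 1.43, and its WT means were 0.26 and 1.06. All 3 members of family 22 had lower means in both genotypes, and Slc22a17 fell 2.11-fold in WT and 2.01-fold in KO.

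Among the carriers known from nerve cells, a grouping made after the values were seen, the 5 described here had lower means in colitis in both genotypes. The noradrenaline transporter, described further on, had higher ones. Slc25a27 and the serotonin transporter Slc6a4, also described further on, were left out of the 5. Slc25a27 had lower means in both genotypes, while Slc6a4 had differences of −0.94 in WT and 0.21 in KO. Slc5a7, which returns choline to cholinergic endings, fell from 3.19 to 1.73 log2 RPM in WT and from 2.47 to 1.45 in KO. Slc18a3, which loads acetylcholine into vesicles, fell in KO from 2.35 to 0.92, 2.71-fold, and had 2.51 and 1.67 in WT. Slc10a4, a vesicle protein of cholinergic and aminergic neurons, fell in KO by 1.17 and had a WT difference of −0.83. Slc6a17, a vesicular amino acid carrier, fell from 5.06 to 3.89 in WT and from 4.79 to 3.79 in KO. Slc7a14, which is expressed in nervous tissue, fell by 1.40 and 1.14. The neuron markers Elavl4 and Uchl1 fell in both genotypes and were above the floor in all 4 groups. Elavl4 fell from 3.79 to 2.83 log2 RPM in WT and from 3.59 to 2.25 in KO, and Uchl1 fell from 5.81 to 4.77 and from 5.57 to 4.69. The part of this marker change in the falls was not tested.

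Monoamine carriers of family 6 went different ways. Slc6a4, the serotonin transporter, which clears serotonin from the mucosa, fell in WT from 4.91 to 3.97 log2 RPM and had KO means of 4.97 and 5.18. Slc6a2, the noradrenaline transporter, rose in WT from −3.01 to 0.32. Its control means in both genotypes lay under the floor, so no fold is given, and its KO colitis mean was −1.12.

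Amino acid and peptide carriers split evenly. Of the 16 members of this class, the 2 monoamine carriers included, 6 rose and 6 fell in WT, and 6 rose and 4 fell in KO. Slc15a1, the apical peptide carrier of enterocytes, fell from 7.47 to 6.10 log2 RPM in WT, 2.58-fold, and had 7.23 and 6.65 in KO, 1.5-fold apart. Slc1a4, a carrier of small neutral amino acids, fell in both genotypes by 0.72 and 0.64. Slc6a14, the member with the highest level per length, rose slightly in KO, from 10.27 to 10.51, and its WT means were 10.35 and 10.15.

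The rises in this class were found in other carriers. Slc7a9, a subunit of the cystine and dibasic amino acid carrier, rose from 1.82 to 3.53 in WT and from 1.79 to 3.70 in KO, 3.28-fold and 3.75-fold. Slc7a11, the cystine/glutamate exchanger that feeds glutathione synthesis, rose from 3.08 to 4.48 and from 2.84 to 4.17. Slc7a5, the carrier of large neutral amino acids, rose in KO by 0.80 and had a WT difference of 0.51. Slc15a3, a peptide and histidine carrier of endolysosomes in myeloid cells, rose from 3.84 to 5.57 in WT and from 3.82 to 5.15 in KO, and its exons overlap Tmem132a on the opposite strand.

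Metal carriers were the class in which no member had a lower mean in colitis. The class was set by family number, so metal carriers of other families are not counted in it. All 8 members of the class had higher means in both genotypes, 4 rose in WT and 6 rose in KO. Slc11a1 (Nramp1), the metal carrier of phagosomes in macrophages and neutrophils, rose from 3.20 to 4.64 log2 RPM in WT, 2.72-fold. In KO it rose from 3.18 to 4.42, 2.38-fold. The zinc importer Slc39a10 rose by 0.72 and 0.56. The zinc exporter Slc30a2 rose in KO from −0.17 to 1.18 and had −0.68 and 0.27 in WT. The iron exporter Slc40a1 (ferroportin) rose in KO from 8.22 to 8.65, while its WT means were 8.26 and 8.47. The copper carrier Slc31a2 and the zinc importer Slc39a1 rose in WT by 0.36 and 0.40, with KO differences of 0.21 and 0.18.

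Markers of several leukocytes and of fibroblasts rose in the same comparisons. The 6 listed of 7 macrophage markers rose in both genotypes, and their summed level was 9.48 log2 RPM in WT control, 9.53 in KO control, 10.73 in WT colitis and 10.71 in KO colitis. Of 8 neutrophil markers 7 were listed, and all 7 rose in WT and 6 in KO. Their summed level was 6.67 and 6.77 in control and 8.70 in WT colitis and 8.21 in KO colitis. Ly6g was the largest part of that sum in all 4 groups and rose by only 1.17 (WT) and 1.26 (KO). Taken gene by gene, the middle value among the 7 colitis differences was larger, at 4.43 (WT) and 3.02 (KO). Apart from Ly6g, each listed marker had a lower mean in KO colitis than in WT colitis, such as S100a8 with 2.88 against 5.54. None was listed between genotypes. Of the 7 markers, 2 were at or under the floor in WT control and 3 in KO control. All 5 T cell markers rose in both genotypes, with none at the floor, from a summed level of 4.14 to 5.77 in WT and from 4.08 to 5.84 in KO. Of 5 B and plasma cell markers only Cd79b was listed, and it rose in KO from 3.42 to 4.35. Of 4 fibroblast markers 3 were listed, and these rose in both genotypes, from a summed level of 10.29 to 11.26 in WT and from 10.26 to 10.84 in KO. The part of these markers in the rises of Slc7a11, Slc15a3, Slc16a3 and the metal carriers was not tested.

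Sugar carriers held both the second largest fall and the second largest rise in WT. Beside Slc37a2, the proton-linked sugar carrier Slc45a1 fell in WT from 1.11 to −0.58 log2 RPM. Slc5a9, a Na+-coupled carrier of mannose and glucose (chromosome 4, 111875375 to 111902918, minus strand), rose from 4.16 to 6.46 in WT and from 4.25 to 6.04 in KO, 4.93-fold and 3.46-fold. Slc2a6, a sugar carrier of lysosomes in macrophages, rose in WT from 1.89 to 3.01 and had 2.23 and 2.79 in KO. The fructose carrier Slc2a5 rose in KO from 2.23 to 3.54 and had a WT difference of 1.10. Classes were assigned by family number, so the choline carrier Slc5a7 and the vitamin carrier Slc5a6 were counted among the 8 members of the sugar class, of which 4 fell and 3 rose in WT, and 1 fell and 3 rose in KO.

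Mitochondrial carriers were mostly lower. Of 12 members of family 25, 6 fell and 2 rose in WT, 5 fell and 3 rose in KO, and the median difference was −0.64 in WT and −0.54 in KO. Slc25a34 and the calcium-regulated ATP-Mg/phosphate carrier Slc25a23 fell in both genotypes, by 0.78 and 0.75 in WT. Slc25a27, an uncoupling protein of neurons, fell in KO from 2.06 to 0.83. Slc25a45 rose in both genotypes, by 0.97 and 0.75. Slc25a47 and Slc25a29 lie head to head 162 bases apart on chromosome 12 in the annotation, and the Slc25a29 window printed above, with 3 GGGCGG and 2 CCAAT matches, covers both starts. Both fell in WT, by 1.15 and 0.78, with KO differences of −0.66 and −0.54. The RefSeq start of Slc25a47 lies 15083 bases downstream of the start used in the deposited lists.

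Family 35, named for its nucleotide sugar carriers, was divided. Such carriers supply the Golgi and the endoplasmic reticulum with building blocks for glycosylation. The family number alone does not give the substrate of each gene. Of 9 members of family 35, 5 rose and 3 fell in WT, and 2 rose and 3 fell in KO. Slc35b1 rose by 0.52 in WT, to 7.51 log2 RPM, and from 6.96 to 7.45 in KO. Slc35a4 rose by 0.25 and 0.24. Slc35e3 showed the largest fall of the family, with a difference of −1.25 in each genotype. The GDP-fucose carrier Slc35c1 rose in WT by 0.19, the smallest difference of any member that rose in the WT list.

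Carriers of vitamins, nucleosides, lipids and choline were likewise mixed, with 5 of 11 falling and 3 rising in WT, and 3 falling and 3 rising in KO. The vitamin C carrier Slc23a2 fell in WT (by 0.50) and in KO (by 0.61), and the fatty acid carrier Slc27a1 fell by 0.62 and 0.78. The nucleoside carrier Slc28a3 rose from 3.18 to 4.34 in WT and from 3.65 to 4.51 in KO. Its exons overlap a predicted gene on the opposite strand. The folate carrier Slc46a1 fell in WT by 0.74 and had a KO difference of −0.45.

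**Figure D4:**
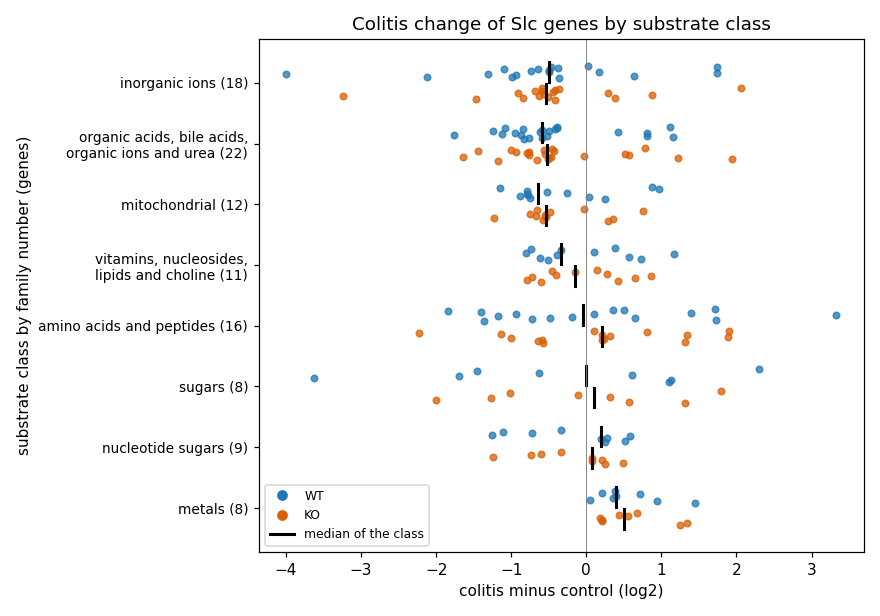
Difference between colitis and control (x axis, log2) of each Slc gene in WT (blue) and KO (orange), grouped by substrate class (y axis, number of genes in brackets), with a black bar at the class median. The medians are lowest for mitochondrial carriers in WT (−0.64) and highest for metal carriers in both genotypes (0.39 in WT and 0.50 in KO), where all 8 genes lie to the right of 0.

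The comparison between genotypes asked whether these carriers differed with loss of Smarcad1 in the epithelium, without treatment and in colitis. In control, 1 of 104 members was listed (0.962%), against 0.89% of all listed genes. That member was Slc7a15, of the amino acid carrier family 7 (chromosome 12, 8528483 to 8599066, minus strand), with a mean of −0.10 log2 RPM in WT and 2.68 in KO, 6.88-fold higher in KO. In colitis its WT mean was −1.94, under the floor, and its KO mean was 0.45, and this difference was not listed. It fell with colitis in KO by 2.23, which is the largest fall among the members of the KO list. The WT difference of −1.84 rests on a colitis mean under the floor.

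In colitis, 1 of 104 members was listed, against 1.08% of all listed genes. It was the serotonin transporter Slc6a4 (chromosome 11, 76998603 to 77032340, plus strand), with 3.97 log2 RPM in WT colitis and 5.18 in KO colitis, 2.32-fold higher in KO. The control means were 4.91 in WT and 4.97 in KO, so the 2 genotypes were alike in mean level before colitis. The WT colitis mean was the lowest of the 4. Both shares were close to those of all listed genes.

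The remaining 102 members were in neither list of KO against WT. In control, 96 of 104 members differed by under 0.5 between genotypes, and in colitis 87 did. Differences of at least 1 were found for 1 member in control and 6 in colitis. Besides Slc7a15 and Slc6a4, those in colitis were Slc37a2 (1.71), Slc16a12 (1.17), Slc4a11 (−1.33) and Slc6a2 (−1.44). The median size of the difference was 0.14 in control and 0.19 in colitis, and 0.13 and 0.16 over all listed genes. The lowest difference in control was that of Slc13a3 (−0.98).

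**Figure D5:**
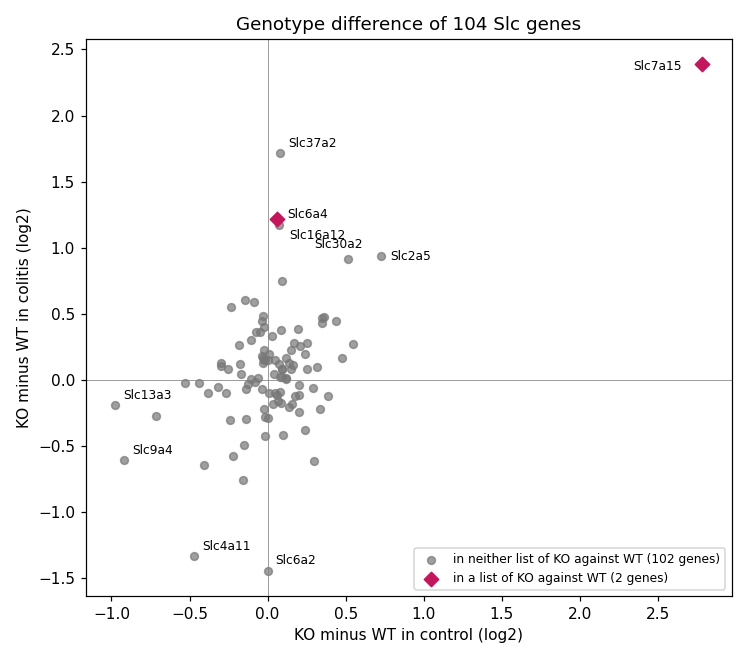
Difference between the authors' KO and WT means in control (x axis, log2) and in colitis (y axis, log2) for 104 Slc genes, with the 2 genes in a list of KO against WT as diamonds. Slc7a15 lies at 2.78 and 2.39, whereas Slc6a4 lies at 0.06 in control and 1.22 in colitis.

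The size of the colitis difference was also set side by side. It was smaller in KO than in WT for 65 of 104 members (62.5%), against 50.6% of all listed genes. That share depends on which list admitted a gene. It was 91.7% for the 36 members listed in WT only and 12.5% for the 32 in KO only. Over all listed genes it was 96.5% of 1079 and 9.02% of 1874. Members held relatively more genes listed in WT only, so 62.5% and 50.6% are not like for like. Among the 43 members that fell in WT the difference was smaller in KO for 35, and among the 29 that rose in WT for 26. These are 81.4% and 89.7%, beside 75.2% and 73.5% of all listed genes that fell or rose in WT. These genes were picked for their difference in WT, which favours that order. Among the 39 that fell in KO it was smaller in KO for 20, and among the 29 that rose in KO for 12. Over all listed genes that fell in KO it was smaller in KO for 31.4%, and over those that rose in KO for 43.3%, beside 51.3% and 41.4% of members.

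The members whose difference was most shifted towards higher values in KO were Slc37a2 (by 1.63), Slc6a4 (1.16), Slc16a12 (1.10), Slc13a3 (0.79), Slc15a1 (0.78) and Slc34a2 (0.75). Of these 6, 5 had fallen in WT, whereas Slc13a3 was higher in colitis in both genotypes. The members most shifted towards lower values were Slc6a2 (−1.44), the mitochondrial carrier Slc25a48 (−0.91), Slc4a11 (−0.86), the Na+/H+ exchanger Slc9a5 (−0.62), Slc18a3 (−0.60) and Slc2a6 (−0.56). None of these shifts was tested against the spread between mice.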

How the data were processed

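Whole colon RNA was sequenced in 16 libraries. The authors mapped reads to GRCm38/mm10 with HISAT2 2.1.0, counted uniquely mapped reads over exons of merged transcripts in SeqMonk, and tested the counts with DESeq2. Reads over annotated ribosomal RNA, a contaminant of some libraries, were left out. The 4 deposited tables hold genes past an adjusted p of 0.05, the authors' adjusted p-values, which were not used, and the authors' group means in log2 RPM, in which a count of 0 stands as 0.9 read. The supplement's counts per library were not used. The series text names small intestine and the sample labels name colon.

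Differences of means, counts by list and direction, and medians were computed with Python 3.11.15 and pandas 2.3.3. Only the library size estimate and the direction of WT differences were checked on simulated group means. Counts by list and medians were not checked in this way. With group means only, the tests on single libraries that the plan held in reserve could not be run, and replicates were not compared. Library size and the detection floor (a mean of 3 reads) came from the steps that whole reads leave in the lowest means. All of the lowest means checked (35 to 76 per group) lay on such steps within 0.0002. Floors cover counting error only. Exon lengths and overlaps came from GENCODE M21, where 96 of 104 members had identical coordinates.

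Genes were named when they were among the 12 largest rises or falls by the mean of both genotypes, in a genotype list, among the 6 largest shifts between genotypes in either direction, in a set of 42 colon transport or immunity genes (18 of which were listed), or the extreme of a family with 4 or more members. Slc24a3, Slc24a5, Slc8a1, Slc1a4, Slc14a1, Slc10a4, Slc22a17, Slc31a2, Slc39a1, Slc39a10, Slc46a1, Slc23a2, Slc27a1, Slc5a6, Slc35a4, Slc35c1 and further members of families 16 and 25 were added after their values were seen. Members, lists and classes were chosen with earlier results of these data known. The alternatives tried are given in the closing section. Part of the neuron marker list is not reported here.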

Additional observations from a re-analysis of the deposited data

How the results depend on the processing

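Of 54 recomputed values for the counts, medians and shares over members, 45 stayed within the tolerance set for them. No replicate could be left out and no single library doubted in turn, because only group means were analysed. No paired analysis was possible because the deposited values used here are group means without replicate columns, and the supplement's values by sample were not used. With a difference of at least 1 also required, 11 members rose and 17 fell in WT, and 9 rose and 10 fell in KO, so falls outnumbered rises in both. Without the members whose exons overlap another gene, 19 rose in WT and 19 in KO, against 29 in each with them. Without the scaffolds and the antisense RNA, 36 fell in KO, against 39 with them. The mean difference over members in KO was −0.15, against the median of −0.42. Scaled to the median of all listed genes, the median shift from WT to KO turned from 0.052 to −0.012, so its sign depends on the scaling. Among members in both colitis lists alone, the difference was smaller in KO for 77.8%, against 62.5% over all members and 63.2% of all genes in both lists. Scaled to the median of all listed genes, 83 of 84 values recomputed for named genes kept their direction, and that of Slc9a5 in WT, where it was not listed, turned from 0.03 to −0.10. Library sizes of 8.005 M to 10.1 M reads limit Slc6a2, Slc9a4 and Slc7a15, each with a group mean at or under 3 reads.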

Other observations

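Transport genes outside the Slc names were counted from the same lists. Of 16 listed ABC transporters, which pump substrates with ATP, 11 had lower and 5 had higher means in colitis in both genotypes, and 8 were in both colitis lists. Abcb1a, the drug efflux pump of the apical membrane, fell from 10.45 to 9.08 log2 RPM in WT and from 10.65 to 9.37 in KO. Abcg2, another efflux pump, fell by 1.00 in WT and 0.84 in KO. Abca13 rose from −0.63 to 1.97 in WT and from −0.12 in KO, by 1.62, and the cholesterol exporter Abcg1 rose by 0.87 and 1.09. All 6 listed ion pumps had lower means in both genotypes. Atp12a, the colonic H+/K+ pump, fell in WT from 9.48 to 7.39 and had KO means of 9.29 and 9.01, a KO minus WT difference of 1.63 in colitis that was not listed. The Ca2+ pump Atp2b3 fell from 1.77 to 0.06 in WT and from 1.37 to −0.62 in KO.

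Of 4 listed aquaporins, 3 had lower means in colitis and 1 had higher means. Aqp8, the water channel of surface colonocytes, fell from 10.76 to 9.36 in WT and from 10.84 to 9.95 in KO. Aqp9, which is expressed in leukocytes, rose from −0.81 to 0.91 in WT and to 0.77 in KO, where its control mean of −2.76 lay under the detection floor. Of 6 listed partners of carriers, all 6 were listed in WT and 2 of them also in KO. The Cl- channel Cftr fell in WT from 8.35 to 7.66 and had 8.25 and 8.09 in KO. The Na+ channel subunit Scnn1a fell by 0.84 in WT and 0.68 in KO, whereas Scnn1b rose in WT by 0.81. Scnn1g fell in WT from 3.51 to 2.56, and its KO means were 2.23 and 2.37. The organic anion carrier Slco3a1 rose in WT by 0.34.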
